A study of Mus musculus with 18 samples.

Results

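The genes of the laminin and collagen IV basement membrane were followed across 6 groups of mouse stem cell cultures. These are Lama1, Lama5, Lamb1, Lamc1, Col4a1, Col4a2, Nid1, Hspg2 and Sparc, 9 of the 19938 genes that had a probe set annotated with their symbol alone. Each of the 9 had exactly 1 such probe set on the Affymetrix Mouse Gene 1.0 ST array, on which a probe set is a group of short probes along a transcript. The groups, with 3 arrays each, were differentiated adult cells of the 129SV background, differentiated embryonic stem (ES) cells of the 129SV background, undifferentiated adult stem cells and undifferentiated ES cells of the Stra8-EGFP/Rosa26 background (Stra8 below), and undifferentiated adult stem cells and undifferentiated ES cells of the 129SV background. According to the series title, adult cells are germline-derived, and the similarity of both stem cell types is the question. The labels give neither the method nor the time of differentiation, nor the culture substrate or any use of feeder cells, which are often fibroblasts, nor how many lines stand behind the arrays, and differentiated cells of the Stra8 background were not analysed here. Nothing in the labels ties the replicates to separate cultures, so that the p-values measure only the spread between samples labelled as biological replicates.

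A basement membrane is a thin sheet of extracellular matrix on which epithelial and other cells rest. Laminins are trimers of an alpha, a beta and a gamma chain that polymerise at the cell surface. Collagen IV forms a covalently linked network beneath them, and nidogen and perlecan bridge both networks. In the early mouse embryo the parietal endoderm secretes a thick sheet of this kind, Reichert's membrane, in which laminin-111, made of the chains encoded by Lama1, Lamb1 and Lamc1, is abundant. Laminin alpha5, encoded by Lama5, is the alpha chain of laminin-511, which supports the growth of undifferentiated pluripotent cells. Collagen IV of most tissues is a trimer of the chains encoded by Col4a1 and Col4a2, nidogen-1 is encoded by Nid1, perlecan by Hspg2, and Sparc encodes a secreted protein that binds collagens.

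The promoter windows of Col4a1 and Col4a2 are shown because these genes lie head to head and their windows share sequence. RefSeq promoter sequences (GRCm38.p6), which cover 250 bases before to 50 bases after 1 start position, were matched for 7 of the 9 genes. For Lama5, Lamb1, Hspg2 and Col4a1 that position differs from the gene's start in the RefSeq gene coordinates (31265146 for Lamb1). Their windows therefore lie otherwise around the gene's start. Lama1 and Lamc1 were not matched. The starts that the windows use, 11312805 for Col4a2 (plus strand) and 11312826 for Col4a1 (minus strand), lie 21 bases apart. In the gene coordinates Col4a1 spans 11198423-11312889 and Col4a2 11312805-11449287. Each of these starts lies inside the span of the other gene, so the shared bases include sequence after each start. The Col4a2 window is chr8:11312555-11312854 and the Col4a1 window chr8:11312777-11313076, and capitals mark the 78 bases that both windows hold, read from opposite strands.
Col4a2: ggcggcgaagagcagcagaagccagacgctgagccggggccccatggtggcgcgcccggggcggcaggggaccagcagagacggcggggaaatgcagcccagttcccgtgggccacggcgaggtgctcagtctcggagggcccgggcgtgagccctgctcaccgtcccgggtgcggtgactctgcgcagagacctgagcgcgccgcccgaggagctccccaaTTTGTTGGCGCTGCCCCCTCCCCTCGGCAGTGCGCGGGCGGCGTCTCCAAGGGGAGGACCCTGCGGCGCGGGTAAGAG
Col4a1: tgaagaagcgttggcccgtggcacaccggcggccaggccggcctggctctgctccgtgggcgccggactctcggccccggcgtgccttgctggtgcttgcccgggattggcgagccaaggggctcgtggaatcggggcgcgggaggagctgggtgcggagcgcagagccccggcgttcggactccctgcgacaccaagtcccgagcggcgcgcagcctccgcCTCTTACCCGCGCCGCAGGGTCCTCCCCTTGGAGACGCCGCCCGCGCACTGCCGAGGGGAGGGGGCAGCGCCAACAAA

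The windows of Lama5 (minus strand, chr2:180225810-180226109), Lamb1 (plus strand, chr12:31265043-31265342) and Sparc (minus strand, chr11:55420031-55420330) are shown because the values below set these 3 genes apart: Lama5 differed from the other 8 genes, Lamb1 was among those with the closest shared pattern, and Sparc had the largest difference between ES cells of both backgrounds. Capitals mark matches, on either strand, to any of 4 motifs. These are GGGCGG, known as the GC box, then CCAAT, named after its letters, then GATAA, a motif of the factors Gata4 and Gata6, and last ATTGTT, a motif of Sox proteins. None of these motifs overlap each other in the marked matches of the 3 windows.
Lama5: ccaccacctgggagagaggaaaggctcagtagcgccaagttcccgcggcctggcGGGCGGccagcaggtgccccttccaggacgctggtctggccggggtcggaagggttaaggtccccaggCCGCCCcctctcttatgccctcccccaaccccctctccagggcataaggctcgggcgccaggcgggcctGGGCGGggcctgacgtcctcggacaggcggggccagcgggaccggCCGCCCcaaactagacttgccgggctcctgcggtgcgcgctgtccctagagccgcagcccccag
Lamb1: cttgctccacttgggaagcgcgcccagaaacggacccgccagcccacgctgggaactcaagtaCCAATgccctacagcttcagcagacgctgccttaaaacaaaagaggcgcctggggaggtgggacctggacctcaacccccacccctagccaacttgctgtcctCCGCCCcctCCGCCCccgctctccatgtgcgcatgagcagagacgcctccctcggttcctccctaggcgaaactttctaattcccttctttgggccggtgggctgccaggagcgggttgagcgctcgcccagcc
Sparc: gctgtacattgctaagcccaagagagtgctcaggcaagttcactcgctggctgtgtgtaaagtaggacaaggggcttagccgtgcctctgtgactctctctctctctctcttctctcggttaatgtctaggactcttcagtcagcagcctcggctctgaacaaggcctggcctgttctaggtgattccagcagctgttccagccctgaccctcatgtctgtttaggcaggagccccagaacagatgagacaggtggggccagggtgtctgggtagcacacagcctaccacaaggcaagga
GGGCGG was found in 6 of the 7 windows and in 35.66% of all 32851 promoters of the table. The only match in the Col4a1 window lies in the 78 bases shared with Col4a2, so this site counts in both windows. CCAAT was found in 4 of the 7 windows, against 37.41% of all promoters. GATAA and ATTGTT occurred in 0 of the 7 windows, against 25.41% and 10.72% of all promoters. The Sparc window held no match to the 4 motifs and had 55.3% G and C, whereas the other 6 windows had between 63.7% (Lamb1) and 74.0% (Col4a1), and the median of all promoters was 52.7%. These matches describe letters in a window and say nothing of whether a factor binds there.

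All values are deposited log2 signals, in which a difference of 1 is a change of 2-fold. Array medians lay between 7.22 and 7.38, and the mean correlation of an array with its own group was 0.992 to 0.998, with differentiated ES replicate 3 the lowest. The mean level of 10 pluripotency genes was 9.32 to 10.04 in the 6 differentiated arrays and 11.23 to 11.70 in the 12 undifferentiated arrays. Of those 10 genes 9 fell in differentiated adult cells and 9 in differentiated ES cells. The exception was Klf4, a pluripotency factor that other tissues also use, with a change of 0.33 in differentiated adult cells (called higher) and 0.00 in differentiated ES cells (not called). Of 6 genes of male germ cells and their stem cells, Stra8 and Zbtb16 had group means of at most 6.57 and 6.86 in all 4 undifferentiated groups, under the median of all values (7.29). Ddx4 lay between 7.43 and 8.47, Gfra1 between 7.61 and 8.43, Dazl between 6.82 and 8.35 and Ret between 7.02 and 7.65 in these groups. In bulk RNA, fewer cells of a type and less RNA per cell cannot be told apart.

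Most of the basement membrane genes were higher after differentiation in both cell types. With an adjusted p under 0.05 as the call (limma, adjusted over all 19938 genes), 8 of the 9 genes rose in differentiated adult cells, against 27.5% of all genes called higher and 32.2% called lower. All 9 genes rose in differentiated ES cells, against 27.9% of all genes called higher and 27.3% called lower. The median change of the 9 genes was 2.48 in adult cells and 1.99 in ES cells, where the median over all genes was -0.08 and 0.05. For 8 of the 9 genes every one of the 6 differentiated arrays lay above all 12 undifferentiated arrays. The exception was Lama5. How many of all genes separate in this way was not counted, here or in the comparisons below, so separation is given only as a description. With each array centred on its median, the median change of all genes in ES cells shifted by -0.13, and the split of called genes moved to 4045 higher and 6847 lower, against 5553 and 5452 as deposited, while all 9 basement membrane genes were still called higher. In adult cells the split moved to 4764 higher and 8517 lower, against 5478 and 6428, with 8 of the 9 genes called higher.

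Lama1, the alpha chain of laminin-111, had the largest change of the 9. Its signal was 13.40, 13.44 and 13.37 in differentiated adult cells, against 8.92, 8.83 and 8.83 in undifferentiated adult cells of the 129SV background. In the ES pair it was 13.04, 13.07 and 12.97 after differentiation, against 9.30, 9.30 and 9.43 before. The groups were far apart in both pairs, and the lowest differentiated array stood 2.70 above the highest undifferentiated array of any group. The fold change was 23.3 (95% interval 21.3 to 25.4, adjusted p = 1.28e-17) in adult cells and 12.8 (11.8 to 14.0, adjusted p = 3.63e-17) in ES cells.

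Lamb1, the beta1 chain, had 13.51, 13.47 and 13.48 in differentiated adult cells, against 10.67, 10.71 and 10.73 in undifferentiated adult cells. In differentiated ES cells it had 13.26, 13.24 and 13.13, against 11.21, 11.27 and 11.18 in undifferentiated ES cells. Every differentiated array was above every undifferentiated one, and the changes were 6.88-fold (6.40 to 7.39) in adult cells and 3.96-fold (3.69 to 4.25) in ES cells. Lamc1, the gamma1 chain that most laminins contain, had 13.90, 13.93 and 13.82 in differentiated adult cells, against 11.39, 11.39 and 11.45 in undifferentiated adult cells. In the ES pair its values were 13.67, 13.64 and 13.70 after differentiation, against 11.66, 11.66 and 11.62 before. Lamc1 was 5.57-fold higher (5.19 to 5.97) in differentiated adult cells and 4.07-fold higher (3.80 to 4.37) in differentiated ES cells, with no overlap of arrays.

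Lama5 behaved otherwise. Its signal was 10.39, 10.53 and 10.56 in differentiated adult cells, against 10.33, 10.35 and 10.41 in undifferentiated adult cells. It was 11.90, 11.80 and 11.88 in differentiated ES cells, against 10.45, 10.40 and 10.36 in undifferentiated ES cells. The adult groups overlapped, while the differentiated ES arrays stood above all other arrays. The change was 1.10-fold in adult cells (1.01 to 1.19, adjusted p = 0.0517, not called) and 2.74-fold in ES cells (2.53 to 2.98, adjusted p = 8.80e-13). The call in adult cells depended on the arrays and settings used. The adjusted p was 0.0123 without differentiated adult replicate 1 (change 0.18) and 0.0468 without undifferentiated adult 129SV replicate 3 (change 0.16). With all arrays kept it was 0.0244 with an intensity trend and 0.0289 with dim genes left out.

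**Figure D1:**
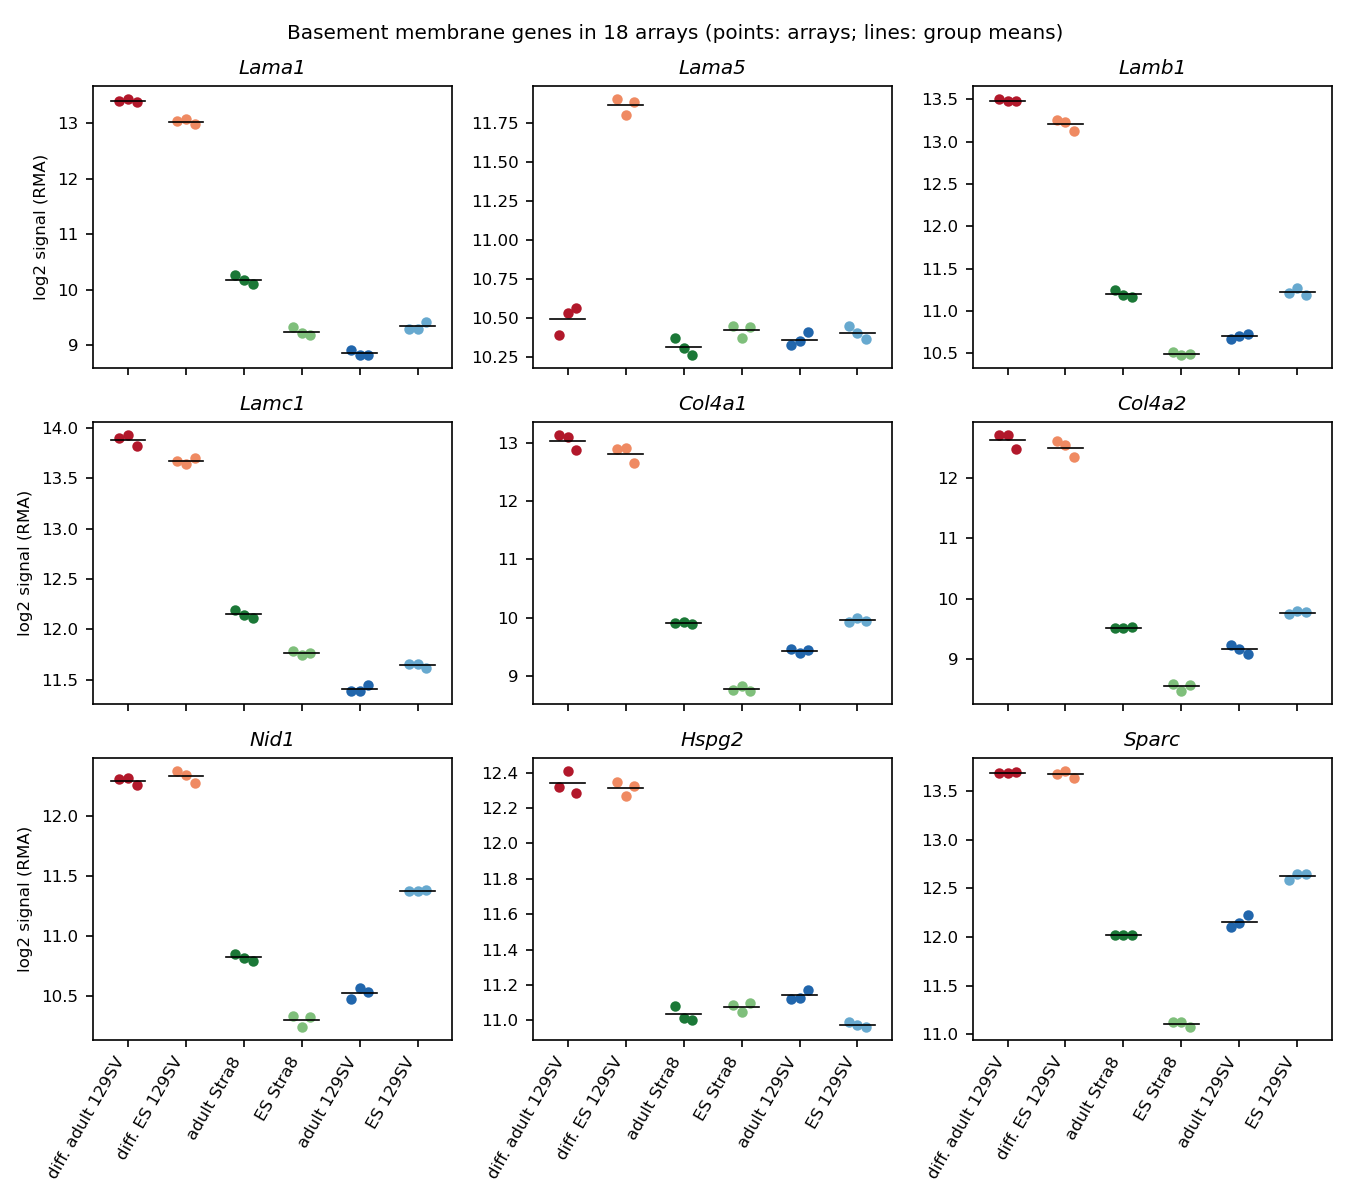
Log2 signal (vertical axis) of each of the 9 basement membrane genes in each of the 18 arrays, by group (horizontal axis, 3 arrays per group, points are arrays and bars are group means). For 8 genes the 6 differentiated arrays lie above all 12 undifferentiated arrays, while Lama5 is highest in the 3 differentiated ES arrays (11.80 to 11.90).

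Both collagen IV chains rose together. Col4a1 had 13.13, 13.10 and 12.87 in differentiated adult cells, against 9.46, 9.40 and 9.46 in undifferentiated adult cells. In differentiated ES cells it had 12.88, 12.91 and 12.65, against 9.93, 9.99 and 9.96 in undifferentiated ES cells. The lowest differentiated array stood 2.66 above the highest undifferentiated array, and replicate 3 was the lowest in both differentiated groups. Col4a1 was 12.1-fold higher (10.9 to 13.4, adjusted p = 5.28e-16) in differentiated adult cells and 7.23-fold higher (6.50 to 8.04, adjusted p = 4.79e-15) in differentiated ES cells.

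Col4a2 had 12.72, 12.71 and 12.50 in differentiated adult cells, against 9.23, 9.16 and 9.08 in undifferentiated adult cells. Its values in the ES pair were 12.62, 12.56 and 12.36 after differentiation, against 9.74, 9.79 and 9.77 before. Again replicate 3 was the lowest of each differentiated group, and no arrays overlapped. The change was 11.2-fold (10.1 to 12.5) in adult cells and 6.71-fold (6.02 to 7.48) in ES cells. Over the 6 group means, Col4a1 and Col4a2 had the highest correlation of any pair of the 9 genes (r = 0.999, given as a description). Pairs on different chromosomes came close, with 0.998 for Lama1 and Lamc1 and 0.997 for Lamb1 and Col4a1. Any part of the shared promoter bases was not tested.

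The linker proteins changed less than the laminin-111 and collagen IV chains. Nid1 had 12.31, 12.31 and 12.26 in differentiated adult cells, against 10.48, 10.56 and 10.53 in undifferentiated adult cells. It had 12.37, 12.34 and 12.28 in differentiated ES cells, against 11.38, 11.37 and 11.39 in undifferentiated ES cells. The differentiated groups reached a similar level, and the undifferentiated adult group lay lower than the undifferentiated ES group. The change of Nid1 was 3.41-fold (3.18 to 3.66) in adult cells and 1.94-fold (1.80 to 2.08) in ES cells.

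Hspg2 had 12.32, 12.41 and 12.29 in differentiated adult cells, against 11.12, 11.13 and 11.17 in undifferentiated adult cells. Its values were 12.34, 12.27 and 12.33 in differentiated ES cells, against 10.99, 10.98 and 10.96 in undifferentiated ES cells. The pairs were clearly separated, with 2.29-fold (2.14 to 2.46) in adult cells and 2.53-fold (2.35 to 2.71) in ES cells. Sparc, the collagen-binding protein, had 13.68, 13.68 and 13.70 in differentiated adult cells, against 12.10, 12.14 and 12.23 in undifferentiated adult cells. In differentiated ES cells it had 13.68, 13.71 and 13.64, against 12.58, 12.65 and 12.65 in undifferentiated ES cells. Sparc was 2.89-fold higher (2.70 to 3.10) in differentiated adult cells and 2.07-fold higher (1.93 to 2.22) in differentiated ES cells, without overlap.

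Most other chains of the same families were not called higher in both cell types, but many of them had low signals. The group means of Lama2, Col4a3 and Col4a6 lay under the median of all values (7.29) in every group. Those of Lama3, Lamb3, Lamc3 and Col4a4 lay on both sides of it. Changes or missing calls at such levels say little about these chains. Of 6 other laminin chains measured, 1 rose and 3 fell in differentiated adult cells, with a median change of -0.14, and 3 rose and 2 fell in differentiated ES cells, with a median of 0.24. Lamb2, the beta chain that can take the place of beta1, rose by 1.91 ± 0.05 (SE) on the log2 scale in adult cells and by 1.85 ± 0.05 in ES cells. Lama4, an alpha chain of vascular and mesenchymal basement membranes, had 7.65, 7.52 and 7.38 in differentiated ES cells, against 10.41, 10.51 and 10.48 in undifferentiated ES cells. It fell by 2.95 there (adjusted p = 2.94e-15), while its change in adult cells was 0.05 and was not called. Lama3, an alpha chain of epidermal basement membranes, fell by 0.54 in differentiated adult cells and rose by 0.43 in differentiated ES cells. Of the 4 other collagen IV chains only Col4a5 was called, with 1.66 ± 0.07 in adult cells and 1.34 ± 0.07 in ES cells.

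Other proteins of basement membranes rose more often than they fell. Of 17 measured, 12 rose and 3 fell in differentiated adult cells (median 0.39), and 11 rose and 4 fell in differentiated ES cells (median 0.67). Tinagl1, a secreted matrix protein that binds laminin and integrins, had the largest change, 4.11 ± 0.07 in adult cells and 3.52 ± 0.07 in ES cells. Ntn4, which encodes netrin-4, rose by 2.01 and 2.15 in adult and ES cells, and Fras1, which anchors embryonic epithelia to the sheet beneath, by 1.92 and 2.38. Nid2, the second nidogen, rose by 1.49 in adult cells and by 1.45 in ES cells. Fbln2, an elastic fibre and basement membrane protein, fell by 0.64 in adult cells and by 2.62 in ES cells, and Col18a1, the source of endostatin, fell by 1.21 and 0.65.

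Receptors that bind laminin and collagen IV went both ways. Of 13 measured, 8 rose and 3 fell in differentiated adult cells (median 0.27), and 7 rose and 5 fell in differentiated ES cells (median 0.21). The laminin-binding integrin chains Itga3 and Itga6 rose by 1.44 and 0.80 in adult cells and by 1.63 and 0.85 in ES cells. The collagen-binding integrin chain Itga2 fell by 1.63 in adult cells and by 3.78 in ES cells. Ddr2, a collagen receptor kinase, fell by 1.53 and 2.85, whereas Ddr1, its relative, rose by 0.67 and 1.12. Itgb1, a beta chain that all these integrin alpha chains can pair with, rose by 0.73 in adult cells and fell by 0.37 in ES cells.

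Enzymes and chaperones of collagen synthesis and cross-linking rose in adult cells without exception among those measured: 14 of 14 were called higher, with a median change of 1.11. In differentiated ES cells 10 rose and 1 fell, with a median of 0.31. P4ha2, a collagen prolyl hydroxylase subunit, rose by 3.14 ± 0.06 in adult cells, and its response there exceeded that of ES cells by 2.94 ± 0.09. The lysyl hydroxylase Plod2 rose by 2.92 ± 0.09 in adult cells, with a difference in response of 2.71 ± 0.12. Tgm2, a cross-linking transglutaminase, rose by 2.57 in adult cells and by 2.54 in ES cells. Serpinh1, the collagen chaperone, rose by 1.11 ± 0.06 in ES cells.

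**Figure D2:**
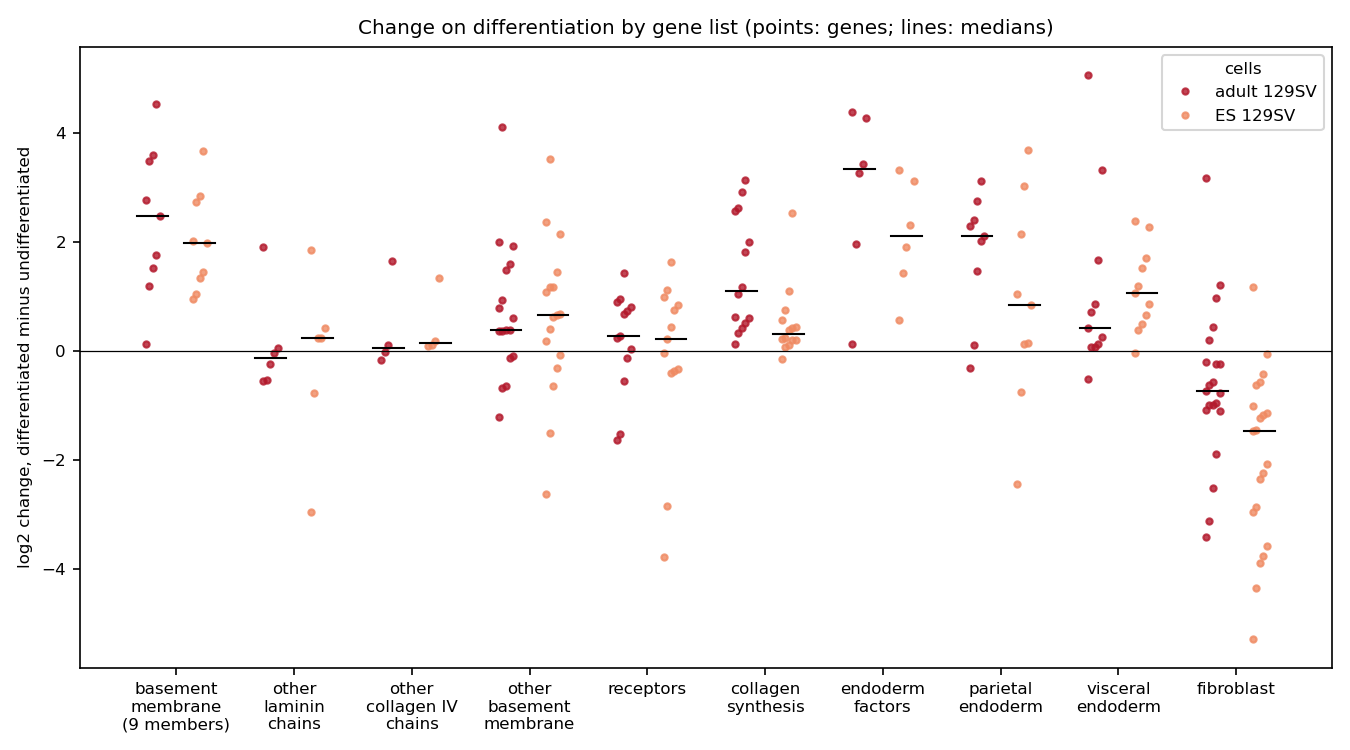
Log2 change on differentiation (vertical axis, differentiated minus undifferentiated) for each gene of 10 lists (horizontal axis), in adult cells (left of each pair) and ES cells (right) of the 129SV background, with points for genes and lines for medians. The 9 basement membrane genes have medians of 2.48 in adult cells and 1.99 in ES cells, and the fibroblast list has -0.73 and -1.47.

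Markers of endoderm and endothelium, cell types known to make such a matrix, were counted in the same comparisons. Of 6 endoderm transcription factors measured, 5 rose in differentiated adult cells and 6 in differentiated ES cells, with medians of 3.35 and 2.12. Gata6, a factor of primitive endoderm, had 12.55, 12.45 and 12.22 in differentiated adult cells, against 8.37, 8.05 and 7.98 in undifferentiated adult cells. In differentiated ES cells it had 11.99, 11.95 and 11.89, against 8.90, 8.81 and 8.78 in undifferentiated ES cells. Gata4 rose by 4.40 ± 0.10 in adult cells and by 3.32 ± 0.10 in ES cells, and Sox7 by 3.44 ± 0.08 and 1.44 ± 0.08. Of 9 parietal endoderm markers 8 rose and 1 fell in adult cells, and 5 rose and 2 fell in ES cells. Plat, tissue plasminogen activator, rose by 3.13 in adult cells, and Krt18, a keratin of simple epithelia, by 3.69 in ES cells. Thbd, thrombomodulin, a marker of parietal endoderm, fell by 0.32 in adult cells and by 2.44 in ES cells, and Vim, the intermediate filament vimentin, rose by 0.11 in adult cells and fell by 0.75 in ES cells. Of 11 visceral endoderm markers 6 rose and 1 fell in adult cells, and 10 rose and 0 fell in ES cells. Cubn, an endocytic receptor, had the largest change in both, with 5.07 and 2.38. Afp rose by 1.52 and Apoa1 by 1.07 in ES cells, but their changes in adult cells (0.26 and 0.07) were not called. Some of these signals were low. The highest group means of Afp (7.14), Ttr (7.20) and Apob (6.55), in differentiated ES cells, lay under the median of all values (7.29). Amn fell by 0.51 in adult cells. Of 8 endothelial markers 5 rose and 2 fell in adult cells, and 4 rose and 1 fell in ES cells. Cdh5 rose by 3.41 and 1.90 in adult and ES cells, and Tek by 2.55 and 2.56. The adhesion protein Pecam1 was lower in both (-1.07 and -1.24). The part of these cell types in the change of the basement membrane genes was not tested.

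Most fibroblast markers moved the other way on differentiation. Of 21 measured, 5 rose and 16 fell in adult cells (median -0.73), and 1 rose and 19 fell in ES cells (median -1.47). Prrx1, a mesenchymal transcription factor, had 7.33, 7.32 and 7.46 in differentiated adult cells, against 10.50, 10.48 and 10.51 in undifferentiated adult cells. In ES cells it had 6.58, 6.69 and 6.68 after differentiation, against 11.92, 11.98 and 11.94 before. Pdgfra rose in both cell types, with group means of 12.07 in differentiated and 8.88 in undifferentiated adult cells. Its means in ES cells were 11.73 after differentiation and 10.55 before. Dcn and Col3a1 also rose in adult cells, from 10.15 to 11.36 and from 9.47 to 10.44. In ES cells both were lower after differentiation (10.32 against 12.67, and 10.15 against 10.57). The 8 basement membrane genes that rose in both cell types were higher in the arrays with the lower mean level of the fibroblast list. The part of fibroblasts in the levels of the basement membrane genes was not tested.

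The rise was larger in adult cells than in ES cells for most genes, as tested by the difference between both responses. In the 129SV background the response of 7 of the 9 genes was called higher in adult cells and 1 lower, against 24.2% and 21.5% of all genes. The difference was 0.86 ± 0.09 (SE) for Lama1 (adjusted p = 5.00e-07), 0.82 ± 0.07 for Nid1 and 0.80 ± 0.07 for Lamb1. It was 0.74 ± 0.10 for both Col4a1 and Col4a2, 0.48 ± 0.07 for Sparc and 0.45 ± 0.07 for Lamc1. Undifferentiated adult cells started lower than ES cells for these 7 genes. For Nid1 the group means were 10.52 in adult and 11.38 in ES cells before differentiation, and 12.29 and 12.33 after. For Lama1 they were 8.86 and 9.34 before, and 13.40 and 13.03 after. Lama5 went the opposite way, with -1.32 ± 0.08 (adjusted p = 1.33e-09). The response of Hspg2 differed by -0.14 (95% interval -0.28 to 0.01, adjusted p = 0.109) and was not called. The response of the collagen synthesis list was called higher in adult cells for 9 of 14 genes and lower for 0, and that of the fibroblast list for 19 of 21 and lower for 1.

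Between differentiated adult and differentiated ES cells 4 of the 9 genes were called higher and 1 lower, against 19.4% and 12.8% of all genes. Lama1 was 1.30-fold higher (1.19 to 1.42), Lamb1 1.21-fold (1.13 to 1.30) and Lamc1 1.16-fold (1.08 to 1.24) in differentiated adult cells, each with no overlap of arrays. Col4a1 was 1.17-fold higher (adjusted p = 0.0269), but its arrays overlapped and the call was lost without differentiated ES replicate 3 (change 0.14, adjusted p = 0.130), without differentiated adult replicate 1 (0.17, adjusted p = 0.120) or without differentiated adult replicate 2 (0.19, adjusted p = 0.104). Same-numbered arrays of these groups correlated by 0.144 to 0.442 in their deviations, but only 2 of 6 correlated best with their own number. Whether the numbers pair the arrays is therefore not settled. Within replicate numbers differentiated adult minus ES cells was 0.25, 0.19 and 0.22 for Col4a1 and 0.10, 0.15 and 0.14 for Col4a2. With the replicate number as a block the adjusted p was 0.0196 for Col4a1 and 0.166 for Col4a2. For Col4a2 the adjusted p was 0.194, and 0.0429 without differentiated adult replicate 3 (change 0.21). In a fit of these 6 arrays alone 2 genes were called higher and 1 lower, and neither Col4a1 (adjusted p = 0.212) nor Lamc1 (adjusted p = 0.0896) was called. The remaining differences were 0.03 for Hspg2 (fold 0.949 to 1.09), 0.01 for Sparc (0.942 to 1.08) and -0.04 for Nid1 (0.907 to 1.04), none of them called. Lama5 was 2.58-fold lower in differentiated adult cells (adjusted p = 4.46e-11).

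**Figure D3:**
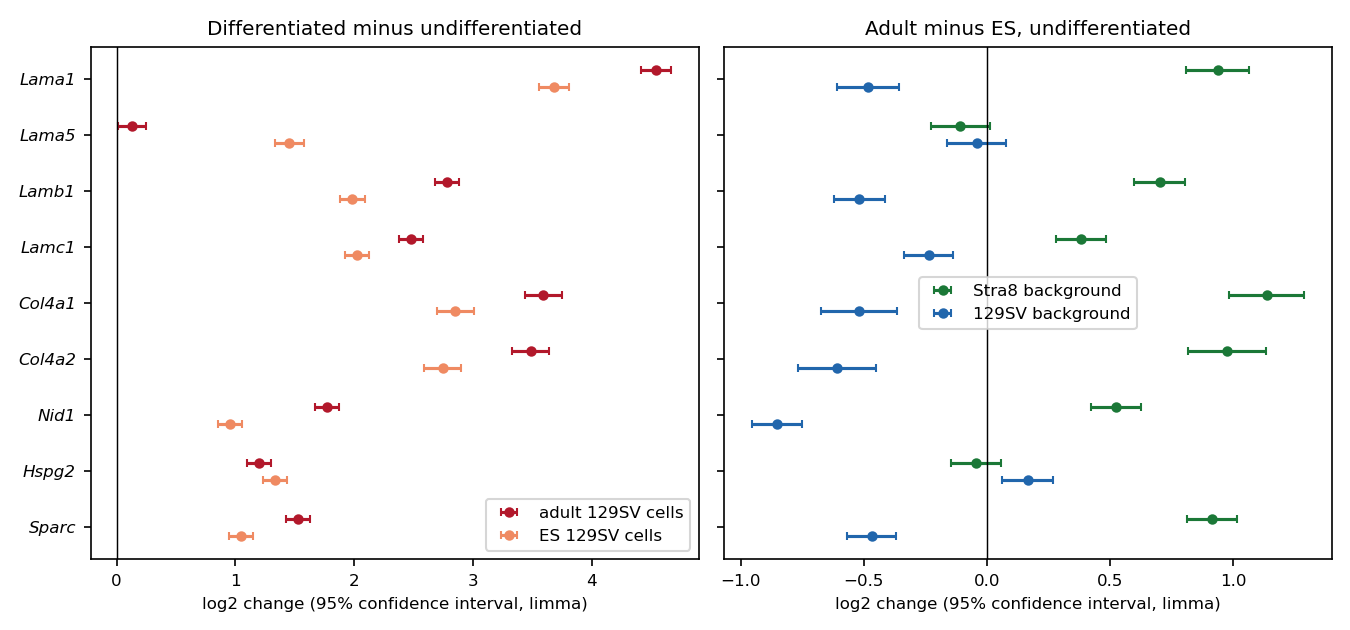
Log2 change of each of the 9 genes with its 95% interval, by comparison. Changes on differentiation are positive for all 9 genes, with Lama5 at 0.13 in adult cells, and the difference of adult minus ES cells is positive for 7 genes in the Stra8 background and negative for 8 in the 129SV background.

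The effect of origin among undifferentiated cells had opposite directions in the 2 backgrounds. In the Stra8 background 7 of the 9 genes were called higher and 0 lower in adult cells than in ES cells, against 13.2% and 15.1% of all genes. In the 129SV background 1 was called higher and 7 lower in adult cells, against 23.0% and 23.1% of all genes. The median change of the 9 genes was 0.70 in the Stra8 background and -0.48 in the 129SV background, where the medians over all genes were -0.003 and 0.06. The 129SV arrays of this comparison also enter the differentiation responses, so the values of both are not independent.

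In the Stra8 background Col4a1 had 9.91, 9.93 and 9.90 in adult cells, against 8.76, 8.83 and 8.75 in ES cells. The groups were separated, with a 2.20-fold difference (1.98 to 2.44, adjusted p = 1.29e-08). Col4a2 had 9.50, 9.51 and 9.53 in adult cells, against 8.58, 8.46 and 8.57 in ES cells, a 1.97-fold difference (1.76 to 2.19). Lama1 had 10.27, 10.17 and 10.11 in adult cells, against 9.34, 9.22 and 9.19 in ES cells, a 1.91-fold difference (1.75 to 2.09). Sparc, at 12.02 in each of the 3 adult arrays, against 11.12, 11.12 and 11.07 in ES cells, was 1.88-fold higher (1.76 to 2.02). All 4 genes were thus higher in adult cells in every array. The laminin chains Lamb1 and Lamc1 followed with 1.63-fold and 1.30-fold, and Nid1 with 1.44-fold. Lamb1 had 11.25, 11.19 and 11.16 in adult cells, against 10.52, 10.48 and 10.49 in ES cells, and Lamc1 12.19, 12.14 and 12.11, against 11.79, 11.74 and 11.77. Nid1 had 10.85, 10.82 and 10.79 in adult cells, against 10.33, 10.24 and 10.32 in ES cells, so that the arrays of these 3 genes did not overlap either. Lama5 (10.37, 10.31 and 10.26 in adult cells, against 10.45, 10.37 and 10.44 in ES cells) and Hspg2 (11.08, 11.01 and 11.00, against 11.09, 11.05 and 11.10) were not called, with adjusted p of 0.187 and 0.607.

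In the 129SV background Nid1 was 1.81-fold lower in adult cells than in ES cells (adjusted p = 3.63e-10), the largest of the 9 differences. Col4a2 was 1.53-fold lower, Col4a1 and Lamb1 1.43-fold lower each, Lama1 1.40-fold, Sparc 1.38-fold and Lamc1 1.18-fold. For each of these 7 genes the 3 adult arrays lay below the 3 ES arrays. Genes that were not called could also separate, such as Sox2 and Nanog of the pluripotency list in this comparison. Hspg2 was 1.12-fold higher in adult cells (1.04 to 1.20, adjusted p = 0.00961), and this call was lost when each array was centred on its median (change 0.13, adjusted p = 0.0581). The change of Lama5 was -0.04 (fold 0.895 to 1.06, adjusted p = 0.579), with overlapping arrays.

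The difference between both backgrounds was itself called for 8 of the 9 genes. The adult minus ES difference was higher in the Stra8 background for 7 genes and lower for 1, against 21.3% and 21.8% of all genes. It was 1.66 ± 0.10 for Col4a1, 1.58 ± 0.10 for Col4a2, 1.42 ± 0.09 for Lama1, 1.38 ± 0.07 for Nid1 and for Sparc, 1.22 ± 0.07 for Lamb1 and 0.62 ± 0.07 for Lamc1. For Hspg2 it was -0.21 ± 0.07 (adjusted p = 0.0201), a call that was lost with arrays centred on their medians (-0.16, adjusted p = 0.0946). For Lama5 it was -0.07 (95% interval -0.23 to 0.10, adjusted p = 0.559).

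The fibroblast list and several other lists were counted in the same comparisons. Of the 21 fibroblast genes 21 were called higher and 0 lower in adult than in ES cells of the Stra8 background (median 0.75), and 1 higher and 16 lower in the 129SV background (median -0.59). Col1a1, the alpha chain of fibrillar collagen I, had 12.33, 12.35 and 12.33 in adult cells, against 11.61, 11.56 and 11.59 in ES cells of the Stra8 background. In the 129SV background it had 12.59, 12.70 and 12.60 in adult cells, against 13.12, 13.15 and 13.21 in ES cells. Of 14 collagen synthesis genes 9 were called higher and 2 lower in adult cells of the Stra8 background, and 3 higher and 9 lower in the 129SV background, led by Plod2 (-2.30 ± 0.09) and P4ha2 (-2.16 ± 0.06). Of 6 endoderm factors 4 were called higher and 0 lower in adult cells of the Stra8 background, and 0 higher and 4 lower in the 129SV background, with Gata6 at 0.89 ± 0.11 and -0.69 ± 0.11. Of 11 visceral endoderm markers 6 were called higher and 0 lower in the Stra8 background, and 0 higher and 3 lower in the 129SV background, with Cubn at 3.20 ± 0.07 and -2.29 ± 0.07. In the 129SV background the other 8 visceral markers were not called, among them Afp (0.17), Ttr (0.23) and Apoa1 (0.17), and the median of the list was -0.12. Of 9 parietal endoderm markers 9 were called higher in the Stra8 background, and 2 higher and 6 lower in the 129SV background, where the keratins Krt8 (0.73) and Krt18 (0.93) were the 2 called higher. Endothelial markers went both ways, with 2 of 8 higher and 2 lower in the Stra8 background and 3 higher and 3 lower in the 129SV background. Whether cells of these kinds in the cultures account for the levels of the basement membrane genes was not tested.

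**Figure D4:**
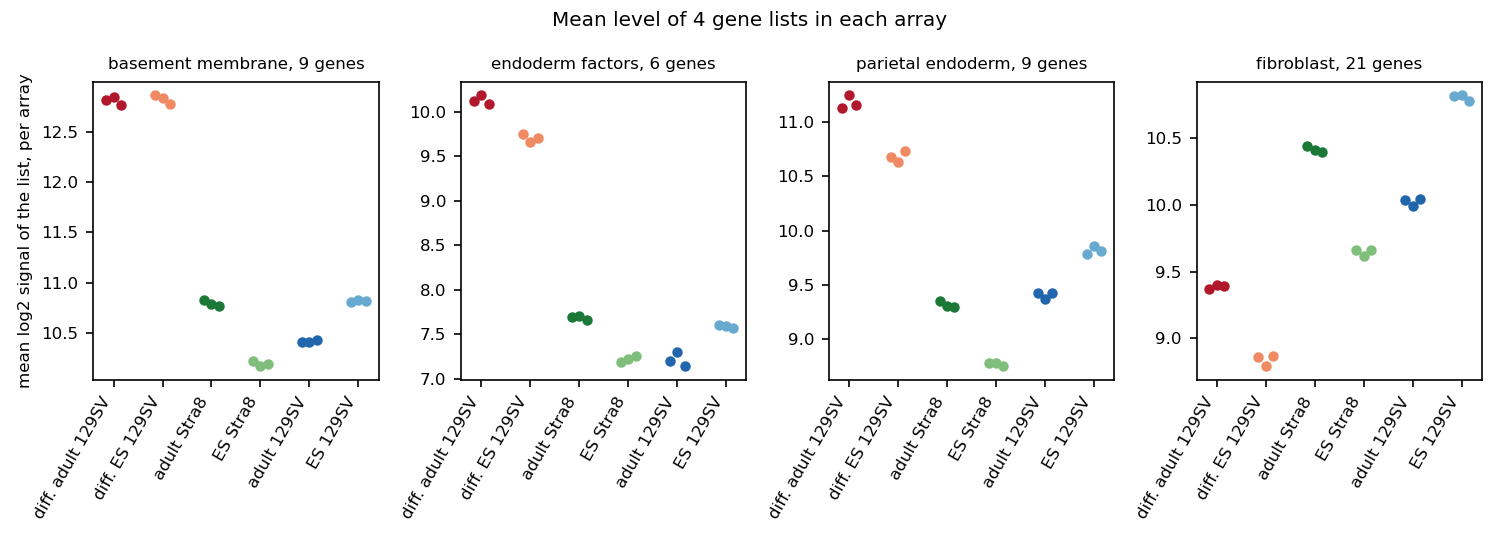
Mean log2 signal of 4 lists in each of the 18 arrays, by group (points are arrays). Among undifferentiated groups the basement membrane genes and the fibroblast list are both lowest in ES Stra8 cells and next lowest in adult 129SV cells, while in the differentiated groups the basement membrane genes are at their highest and the fibroblast list at its lowest.

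In the differentiated groups the mean of the 9 genes had medians over the 3 arrays of 12.82 in adult cells and 12.84 in ES cells, where the fibroblast list had 9.39 and 8.86. Across the 4 undifferentiated groups the mean of the 9 genes had array medians of 10.79 in adult Stra8 cells, 10.19 in ES Stra8 cells, 10.41 in adult 129SV cells and 10.81 in ES 129SV cells. The fibroblast list had 10.41, 9.66, 10.04 and 10.82 in the same groups.

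Comparing backgrounds, Stra8 ES cells had lower levels than 129SV ES cells for 5 of the 9 genes and higher levels for 0, against 20.0% and 21.3% of all genes. Sparc was 2.87-fold lower in Stra8 ES cells (adjusted p = 2.38e-13), Col4a2 2.34-fold, Col4a1 2.26-fold, Nid1 2.11-fold and Lamb1 1.65-fold, each with no overlap. The other laminin chains were not called, with changes of -0.10 for Lama1, 0.02 for Lama5 and 0.12 for Lamc1 (adjusted p = 0.0532), and neither was Hspg2 with 0.10. Over 13 alternatives the adjusted p ran from 0.00861 to 0.366 for Lamc1 and from 0.0283 to 0.540 for Hspg2. Between these ES cells 19 of 21 fibroblast genes and 13 of 14 collagen synthesis genes were called lower in the Stra8 background and 0 of either list higher.

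In adult cells 6 of the 9 genes were higher in the Stra8 than in the 129SV background and 1 lower, against 24.2% and 26.8% of all genes. Lama1 was 2.50-fold higher (2.29 to 2.73, adjusted p = 3.68e-11), Lamc1 1.67-fold and Lamb1 1.41-fold. Smaller increases were found for Col4a1 (1.39-fold), Col4a2 (1.28-fold) and Nid1 (1.23-fold). Sparc was 1.10-fold lower (adjusted p = 0.0220), and this call was lost without adult 129SV replicate 3 (change -0.10, adjusted p = 0.107), adult Stra8 replicate 1 (adjusted p = 0.0546) or adult Stra8 replicate 2 (adjusted p = 0.0559). Lama5 (-0.05) and Hspg2 (-0.11) were not called, with an adjusted p of 0.0762 for Hspg2 that ran from 0.0283 to 0.188 over 13 alternatives. Between these adult cells 10 of the 21 fibroblast genes were called higher and 6 lower.

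The order of the 6 groups differed between genes below the differentiated pair. For Lama1 it ran from differentiated adult cells (mean 13.40 ± 0.03 SD) through differentiated ES (13.03 ± 0.05), adult Stra8 (10.18 ± 0.08), ES 129SV (9.34 ± 0.07) and ES Stra8 (9.25 ± 0.08) to adult 129SV cells (8.86 ± 0.06), with overlap only between both ES groups. For Lamc1 adult Stra8 cells came next after the differentiated pair (12.15 ± 0.04) and adult 129SV cells came last (11.41 ± 0.04), with no neighbours overlapping. For Col4a1, Col4a2, Lamb1 and Nid1 the order after the differentiated pair was ES 129SV, adult Stra8, adult 129SV and ES Stra8, and the ES 129SV and adult Stra8 arrays overlapped for Col4a1 and Lamb1. Sparc placed adult 129SV cells (12.16 ± 0.07) above adult Stra8 cells (12.02 ± 0.004), also with ES Stra8 cells last (11.11 ± 0.03). Hspg2 had adult 129SV cells next after the differentiated pair (11.14 ± 0.03) and ES 129SV cells last (10.98 ± 0.01), within a span of 0.17 over all 4 undifferentiated groups. For Lama5 the groups below differentiated ES cells (11.86 ± 0.05) all overlapped their neighbours, between 10.31 ± 0.05 in adult Stra8 and 10.49 ± 0.09 in differentiated adult cells.

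Correlations over the 6 group means are a description, since every pair shares the contrast between differentiated and undifferentiated cells. The 28 pairs of genes without Lama5 had r between 0.826 and 0.999, and the 8 pairs with Lama5 between 0.591 and 0.679. Within arrays Col4a1 minus Col4a2 ran from 0.18 to 0.42 over the 18 arrays (median 0.32), while the group means spanned 4.25 log2 units for Col4a1 and 4.11 for Col4a2.

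Among 5484 other genes whose group means spanned at least 1 log2 unit, those with the pattern most like the mean of the 9 genes were Ptpn14 (r = 0.9999 over the 6 group means), Mafk and Bmp6 (0.998 each), and Selenop, Cd36 and Nostrin (0.997 each). Ptpn14, a protein tyrosine phosphatase, rose by 1.85 ± 0.06 in differentiated adult cells and by 1.56 ± 0.06 in differentiated ES cells. Taking the genes separately, the closest was Dkk3 for Lama1, Gata6 for Lamb1 (r = 0.999), Pip5k1b for Lamc1, Podxl for Col4a1, Sema4c for Col4a2, Tgoln1 for Nid1, Gkn2 for Hspg2 and Gsn for Sparc. Podxl, a sialomucin of epithelia and podocytes, rose by 3.07 ± 0.05 in adult cells and by 2.41 ± 0.05 in ES cells. For Lama5 it was Tnnt2, cardiac troponin T (r = 0.995), with group means of 7.07 in differentiated adult, 9.38 in differentiated ES and 6.75 to 6.93 in the undifferentiated cells. Tnnt2 rose by 2.52 ± 0.08 in differentiated ES cells, and its change in differentiated adult cells was 0.14 (adjusted p = 0.158).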

How the data were processed

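Total RNA (Trizol, then DNase I) was biotin-labelled from 300 ng per array, as the labels' protocols state. The authors deposited log2 signals per probe set, computed by RMA with the Expression Console software of Affymetrix, per the submitters' processing notes. RMA corrects the background, normalises the arrays and summarises the probes. Its version, and whether all 18 arrays were normalised together, are not given in the sources used here. Of 35556 probe sets, 21789 had 1 gene symbol in the platform annotation, 1621 had several and 12146 had none. Of several for a symbol the brightest was kept, which left 19938 genes. Of these genes 19856 matched RefSeq gene IDs (GRCm38.p6). Values were used as deposited. All 18 arrays entered a fit with 6 group means (R 4.3.3, limma 3.58.1, lmFit and eBayes, 12 residual and 3.78 prior degrees of freedom), with 7 comparisons between pairs of groups and 2 of the differences between them. P-values were adjusted by Benjamini-Hochberg over all genes of a comparison and called under 0.05. The fit was tested on simulated data. The number of arrays limits the precision.

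The genes and the lists beside them were chosen with earlier results of these data known, the 6 germ cell genes last of all. Named from each list were up to 4 called genes with the largest change in a comparison, and others with their values, chosen after these were seen. Same-numbered differentiated adult and differentiated ES arrays correlated by 0.144 to 0.442 in their deviations, but only 2 of 6 correlated best with their own number. With the replicate number as a block the same count of 5 genes was called there. Alternatives were the replicate block, array weights, an intensity trend, no dim genes, 2 other normalisations, only the groups compared and leaving out each array.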

Additional observations from a re-analysis of the deposited data

Results flagged for a closer look

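A test of the difference between 2 cell types or backgrounds itself was passed by 8 of the 9 genes in each of 2 cases (limma, adjusted p under 0.05).

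The first case is the response to differentiation, adult minus ES cells of the 129SV background, in which 24.2% of all genes were called higher and 21.5% lower. The difference was 0.86 for Lama1, 0.80 for Lamb1, 0.45 for Lamc1, 0.74 for Col4a1, 0.74 for Col4a2, 0.82 for Nid1 and 0.48 for Sparc on the log2 scale, and -1.32 for Lama5. For Lama5 the 3 differentiated ES arrays stood above all other arrays.

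The second case is the difference between adult and ES cells, in the Stra8 minus in the 129SV background, in which 21.3% of all genes were called higher and 21.8% lower. It was 1.42 for Lama1, 1.22 for Lamb1, 0.62 for Lamc1, 1.66 for Col4a1, 1.58 for Col4a2, 1.38 for Nid1 and 1.38 for Sparc, and -0.21 for Hspg2. For the first 7 genes all 3 adult arrays lay above all 3 ES arrays in the Stra8 background and below them in the 129SV background. The share of all genes with such a separation was not counted. The fibroblast list differed in the same sense for 20 of 21 genes, and its part in this difference was not tested. Both cases use the undifferentiated 129SV arrays.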

How the results depend on the processing

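Over the alternatives run, the number of the 9 genes called was within 1.5 times the reported count in each comparison but 1: between differentiated adult and differentiated ES cells 3 genes were called when only those arrays were fitted, against 5, where fewer arrays gave the spread. Leaving out each array in turn gave 9 called genes in all cases for differentiated ES cells, 8 to 9 for differentiated adult cells, 8 for the difference in response, 4 to 6 between both differentiated groups, 7 and 8 for origin in the Stra8 and 129SV backgrounds, 8 for their difference, 5 between ES cells and 6 to 7 between adult cells of both backgrounds. With the replicate block, 9 genes were called for differentiated ES cells, 8 for differentiated adult cells and 5 between both differentiated groups, and no call changed in any comparison. Outside the comparison of both differentiated groups, same-numbered samples correlated by -0.154 to 0.122 in their deviations. In those comparisons 0 to 4 of 6 samples correlated best with their own number. Between both differentiated groups 2 of 6 samples did, so whether the numbers pair samples there is not settled either. Differences that were near 0 and not called changed sign. Between differentiated adult and ES cells, Sparc was at -0.00132 with centred arrays, -0.0100 with quantile normalisation and -0.00497 to 0.0297 over the arrays left out, and Hspg2 was at -0.0478 with quantile normalisation and -0.00897 to 0.0529 over the arrays left out. Between Stra8 and 129SV ES cells, Lama5 was at -0.0417 with centred arrays and -0.00372 to 0.0408 over the arrays left out. Between adult and ES 129SV cells, Lama5 was at 0.0370 with quantile normalisation. Quantile normalisation also brought calls for the response of Hspg2 (-0.27, adjusted p = 0.00914) and for Nid1 between differentiated groups (-0.12, adjusted p = 0.0390), and took the call of Sparc between adult cells (-0.10, adjusted p = 0.108). Lama5 in differentiated adult cells was called with an intensity trend (adjusted p = 0.0244) and with dim genes left out (0.0289). Array weights, an intensity trend and leaving out dim genes brought calls for Lamc1 between ES cells of both backgrounds (adjusted p = 0.00861, 0.0153 and 0.0264), as did fitting only those groups (0.0481), and for Hspg2 between adult cells of both backgrounds (0.0283, 0.0342 and 0.0432), as did quantile normalisation (0.0367). Array weights also brought calls for Hspg2 between ES cells of both backgrounds (0.0283) and for Lama5 between adult and ES Stra8 cells (0.0243). Between ES cells of both backgrounds centring moved the split of all called genes to 3476 higher and 4894 lower, against 4255 and 3993. The causes were not tested. The alternative of another probe set was not run, since each gene had 1.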
